A study of Mus musculus with 16 samples.

Results

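P19CL6 cells that had spent 12 days in medium with 1% dimethyl sulfoxide (DMSO) were compared with P19CL6 cells in growth, across every gene that could be read from a probe set naming that gene alone. P19CL6 is a mouse embryonal carcinoma line, an immortal line with features of early embryo cells, from which beating cardiac muscle forms in DMSO. The day 12 group was 2 cultures, replicates A and C, plated in differentiation medium with 1% DMSO that was renewed at regular intervals. The growth group was 3 cultures, replicates A, B and C, kept in growth medium without DMSO and passaged regularly. These 5 arrays were selected by their sample titles from the 16 arrays of a time course in which growth and days 4, 6, 8, 10 and 12 were each hybridized to Affymetrix mouse genome arrays, 1 array per culture, from total RNA. All groups are of 1 cell line, and the labels describe the samples as independent. No culture kept for 12 days without DMSO was analysed here, so the part of DMSO and that of 12 days without passage cannot be told apart.

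Embryonal carcinoma cells in growth share the transcription factors and signals of the pluripotent epiblast. When mesoderm forms from such cells, cardiac progenitors switch on Gata, T-box, Hand and Mef2 factors, and these drive the genes of the contractile apparatus and of calcium cycling. The embryonic heart does not form alone: the epicardium, a mesothelial sheet that covers it, the endocardium, smooth muscle, connective tissue cells and the neighbouring yolk sac, whose endoderm secretes serum proteins, arise beside it. The arrays read whole dishes, so that fewer cells of a type and less RNA per cell cannot be told apart in any value below.

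All values are log2 signal, given for day 12 replicates A and C in that order and for growth replicates A, B and C in that order. The number of arrays limits the precision. A log2 signal under 4 was treated as dim. Where every array of a group was dim, only a bound is given, the bright group's mean set against the cutoff, written as at least N-fold. Where some were dim and the group's mean was under the cutoff, each value under it was set to it for the fold, which is also written as a bound, and the dim arrays are counted. Other folds use the measured means. Of 18193 named genes, 10802 were above the cutoff on at least 2 of the 16 arrays and were tested, and the other 7391 were not. Over the tested genes the day 12 arrays correlated with each other at r = 0.979, growth arrays with each other at 0.978 to 0.988, and day 12 with growth arrays at 0.723 to 0.765. The day 12 arrays stood apart in their controls. The 18S rRNA probe sets averaged 8.04 and 8.69 on the day 12 arrays, against 4.91 to 5.66 on the growth arrays. Probe sets for poly-A spike-in RNA averaged 5.70 and 6.52 on the day 12 arrays and 4.35 to 5.28 on the growth arrays. The 3′ to 5′ differences of Actb and Gapdh, which follow RNA integrity, overlapped between the groups. The part of the control signals in the results below was not tested.

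Markers of several lineages were present at day 12, and those of the growth state were lower. Myh6, the alpha myosin heavy chain of heart muscle, had log2 signals of 13.61 and 13.85 at day 12, against 3.27, 3.14 and 3.15 in growth. Ryr2, the calcium release channel of the cardiac sarcoplasmic reticulum, read 9.16 and 9.46 at day 12 and 3.12, 3.05 and 3.05 in growth. Every growth array was dim for both, and Myh6 was at least 850-fold and Ryr2 at least 39.7-fold higher at day 12 (adjusted p = 7.7e-08 and 6.21e-08). Wt1, a transcription factor of the epicardium and other mesothelia, read 8.05 and 8.61 at day 12, against 3.08, 3.15 and 3.16 in growth. Afp, the alpha-fetoprotein of yolk sac endoderm and fetal liver, read 8.99 and 9.25 at day 12, against 2.81, 2.74 and 2.77 in growth. These markers were likewise dim in growth, and no day 12 array came near a growth array. Wt1 was at least 20.2-fold higher (adjusted p = 7.48e-08) and Afp at least 34.8-fold higher. Of 40 markers, 4 of 4 for cardiac muscle, 4 of 4 for epicardium or mesothelium and 3 of 4 for yolk sac or visceral endoderm were higher. Tcf21 and Afp among these passed the filter only through the day 12 arrays and could be called only as higher. The 3 growth-state markers Pou5f1, Sox2 and Nanog were lower, and no marker of skeletal muscle (Myod1, Myog, Myf5) passed the dim filter.

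**Figure D1:**
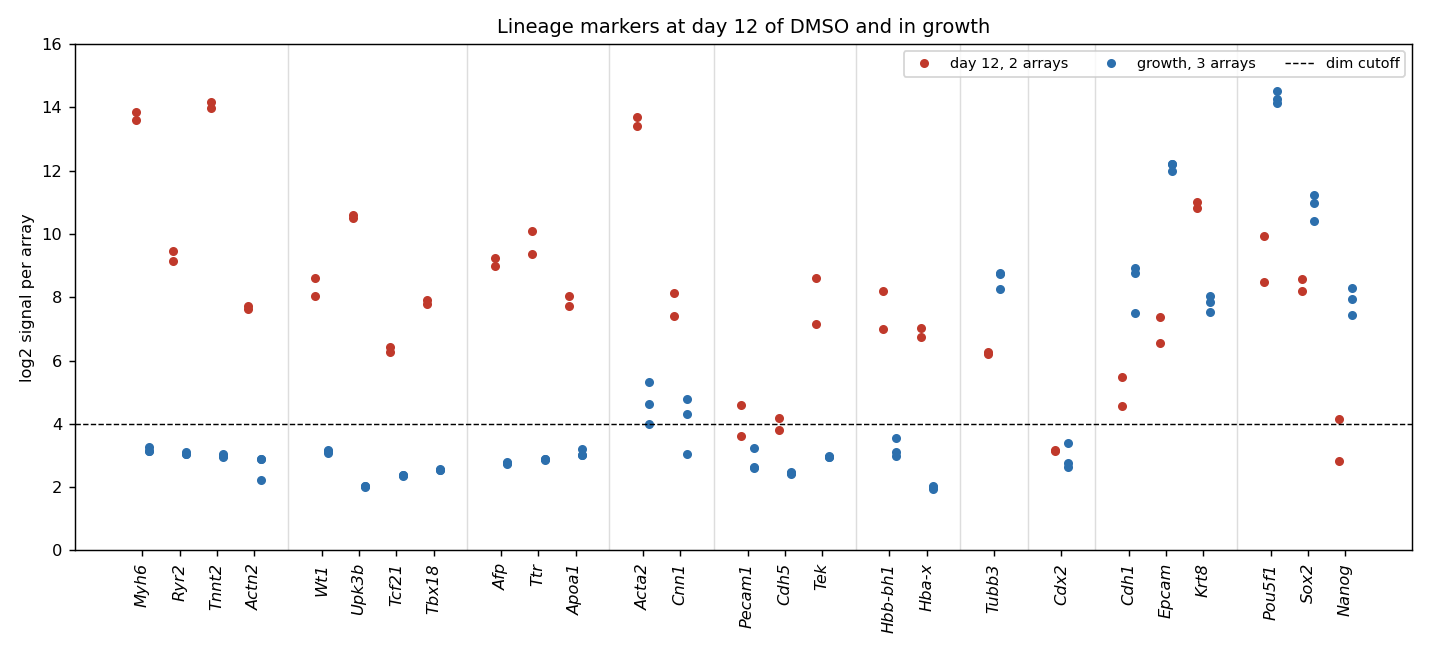
Log2 signal of tested lineage markers (horizontal axis, grouped by lineage) on the 2 day 12 arrays (red) and the 3 growth arrays (blue), with the dim cutoff of 4 as a dashed line. Myh6, Wt1 and Afp lie above 8 on both day 12 arrays and below 4 on every growth array, while Pou5f1, Sox2 and Epcam lie higher in growth.

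Over the whole table, 4524 of 10802 genes, 41.9%, differed between day 12 and growth at an adjusted p under 0.05 and by at least 1 log2 unit. Of all tested genes 22.5%, or 2435, were higher at day 12, with a median difference of 2.03. Another 19.3%, or 2089, were lower, with a median difference of -1.62. The median over all tested genes was 0.00 (rounded to 2 decimals). Rises outnumbered falls among the largest changes: 639 rises and 230 falls exceeded 3 log2 units, and 176 rises and 34 falls exceeded 5. Growth was dim for 672 of the higher genes, and day 12 was dim for 360 of the lower ones. Because 143 of the higher genes passed the dim filter only through the 2 day 12 arrays, they had to differ to be tested at all.

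**Figure D2:**
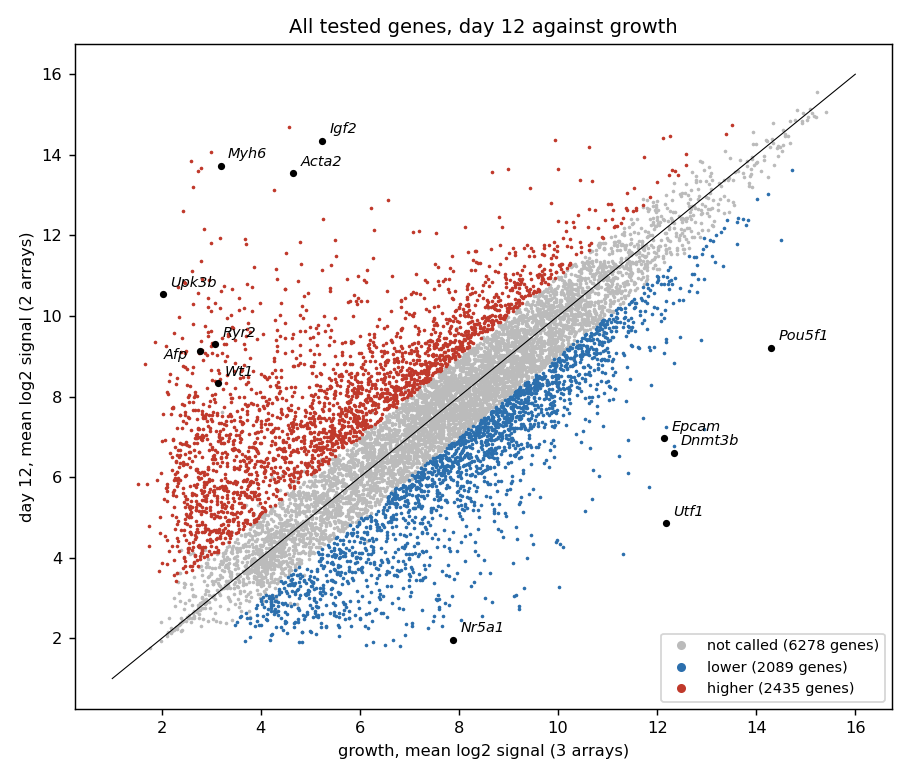
Mean log2 signal of 10802 tested genes at day 12 (vertical, 2 arrays) against growth (horizontal, 3 arrays), with genes called higher in red (2435), lower in blue (2089) and not called in grey. Myh6, Upk3b, Wt1 and Afp stand far above the diagonal from growth means near 2 to 3, and Pou5f1, Utf1 and Nr5a1 far below it.

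Igfbp5, a binding protein for insulin-like growth factors, read 12.58 and 12.64 at day 12 and 2.55, 2.22 and 2.52 in growth, a rise of at least 391-fold (adjusted p = 6e-08). Nrp1, a co-receptor for semaphorins and vascular endothelial growth factor, read 11.46 and 12.17 at day 12, against 3.18, 3.25 and 2.53 in growth. Ackr3, a scavenging receptor for the chemokine Cxcl12, read 10.50 and 10.92 at day 12, against 2.69, 2.13 and 2.15 in growth. In each, every growth array was dim and the day 12 arrays were within 0.8 of each other. Nrp1 was at least 225-fold and Ackr3 at least 104.5-fold higher (adjusted p = 3.18e-09 and 1.74e-07). The secreted heparin-binding factor Ptn was at least 235-fold higher (8.22 ± 0.94 log2 units, SE), with 2 of 3 growth arrays dim. Flrt2 and Flrt3, membrane proteins of cell adhesion and guidance, were at least 63.0-fold and 78.2-fold higher. Ppp1r3c, a glycogen-targeting subunit of protein phosphatase 1, and Sorbs2, a cytoskeletal adaptor of the Z-disc, were at least 87.0-fold and 40.6-fold higher.

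Contractile genes were higher at day 12, and isoforms of atrial and ventricular muscle rose side by side. Of 31 tested sarcomere genes 29 were higher and 0 lower (median 5.61), and of 26 tested cardiac transcription factors 24 were higher and 0 lower (median 3.64). Myl7, the atrial regulatory light chain, read 14.70 and 14.69 at day 12, against 5.04, 4.85 and 3.79 in growth. Myl2, its ventricular counterpart, read 4.94 and 6.63 at day 12, against 2.30, 2.30 and 2.31 in growth. Both rose, but the day 12 arrays matched within 0.02 for Myl7 and lay 1.69 apart for Myl2, which was at least 3.45-fold higher (adjusted p = 4.03e-05). Myh7, the beta myosin heavy chain, read 6.12 and 7.63 at day 12 and was at least 7.34-fold higher than in growth, where it was dim. Tnni3, the adult cardiac troponin I, read 11.24 and 10.46 at day 12, against 2.48, 2.47 and 2.43 in growth, and was at least 115-fold higher (adjusted p = 1.04e-10). The exceptions were Tpm2, whose beta-tropomyosin signal of 8.55 and 7.96 lay under the 9.20, 9.20 and 9.24 of growth without reaching 1 log2 unit (-0.96, adjusted p = 0.00111), and Myom2, an M-band protein of late muscle, at 2.63 and 4.09 at day 12 against 2.37 to 2.55 in growth.

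Transcription factors of the sinus venosus and second heart field were among those that rose. Shox2, a homeobox factor of the sinoatrial node, read 8.97 and 9.20 at day 12, against 2.48, 2.46 and 2.45 in growth, a rise of at least 34.0-fold (adjusted p = 9.59e-08). Isl1, a marker of second heart field progenitors, read 8.21 and 7.93 at day 12 and 1.95, 2.50 and 1.95 in growth, at least 16.8-fold higher. Tbx20 and Hand2, factors of early heart muscle, were at least 140-fold and 246-fold higher. Nkx2-5, the homeobox factor of cardiac progenitors, read 6.33 and 5.52 at day 12 and 2.40, 2.21 and 2.13 in growth, at least 3.81-fold higher. Every one of these was dim on the 3 growth arrays. The natriuretic peptide genes Nppa and Nppb did not pass the dim filter.

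A CArG box, the motif bound by serum response factor, stood in the promoter window of 7 of 27 sarcomere genes with a window in the RefSeq-based table (25.9%: Acta1, Actc1, Ldb3, Myl3, Myl7, Myom1, Nebl) and of 2 of 11 smooth muscle genes (18.2%: Cnn2, Myl9). Windows ran from 250 bases before to 50 after the start, both strands were searched, and the motif reads alike on both. It stood in 1.63% of 32851 windows and, among the tested genes with a window, in 2.71% of those higher at day 12, 1.64% of those lower and 1.3% of those not called. A match is a description of letters and no evidence of binding. The windows of an actin and a light chain of heart muscle, Actc1 at chr2:114052826-114053125 on the minus strand and Myl7 at chr11:5898733-5899032 on the minus strand, and of the smooth muscle light chain Myl9 at chr2:156775214-156775513 on the plus strand (GRCm38.p6), are shown because the signals of all 3 rose by over 8 log2 units. The CArG box is in capitals.
Actc1: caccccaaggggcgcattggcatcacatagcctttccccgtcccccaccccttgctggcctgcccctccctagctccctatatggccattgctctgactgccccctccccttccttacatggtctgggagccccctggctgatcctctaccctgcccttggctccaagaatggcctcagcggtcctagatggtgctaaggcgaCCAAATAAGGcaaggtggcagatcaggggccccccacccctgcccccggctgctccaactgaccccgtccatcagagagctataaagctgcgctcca
Myl7: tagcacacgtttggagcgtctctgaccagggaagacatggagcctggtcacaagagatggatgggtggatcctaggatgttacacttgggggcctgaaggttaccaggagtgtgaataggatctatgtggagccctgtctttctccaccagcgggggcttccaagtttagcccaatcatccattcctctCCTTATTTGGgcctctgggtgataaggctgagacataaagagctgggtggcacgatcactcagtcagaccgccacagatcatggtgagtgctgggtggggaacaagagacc
Myl9: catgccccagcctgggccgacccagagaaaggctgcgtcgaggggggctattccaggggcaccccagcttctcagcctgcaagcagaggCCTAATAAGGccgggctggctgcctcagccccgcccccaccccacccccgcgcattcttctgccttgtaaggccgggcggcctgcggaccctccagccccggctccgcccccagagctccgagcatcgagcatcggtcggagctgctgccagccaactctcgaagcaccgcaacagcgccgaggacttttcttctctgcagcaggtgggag

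Most tested genes of calcium cycling were higher at day 12. Of 18 tested, 12 were higher and 1 lower (median 2.62), and 1 of the 12 passed the filter only through day 12. Pln, the inhibitor of the sarcoplasmic calcium pump, read 9.91 and 10.35 at day 12, against 3.03, 3.02 and 2.93 in growth, a rise of at least 70.0-fold (adjusted p = 2.9e-06). The pump itself, Atp2a2, read 12.04 and 12.08 at day 12, against 11.74, 11.63 and 11.48 in growth, and was not called (adjusted p = 0.0967). Slc8a1, the sodium-calcium exchanger, read 7.0 and 9.0 at day 12 and 2.41, 2.71 and 2.46 in growth, at least 16-fold higher with the day 12 arrays far apart. T-type calcium channel subunits moved in opposite directions. Cacna1g read 4.28 and 4.22 at day 12, against 7.43, 8.14 and 7.84 in growth, 11.8-fold lower (adjusted p = 9.15e-07). Cacna1h read 7.51 and 8.40 at day 12, against 4.03, 4.51 and 4.75 in growth, 11.5-fold higher (adjusted p = 3.29e-06). The inward rectifiers of the atrial acetylcholine-gated current also split, with Kcnj3 7.91-fold lower and Kcnj5 at least 7.63-fold higher. Of 7 tested genes of cardiac channels, junctions and hormones 5 were higher, 1 of them (Kcnj5) passing only through day 12, and 1 lower (median 1.37).

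Smooth muscle genes were higher at day 12. Of 14 tested, 11 were higher and 0 lower (median 3.14), with 1 passing only through day 12. Tagln, an actin-binding protein of smooth muscle and early heart, read 10.85 and 10.52 at day 12, against 4.96, 4.44 and 4.06 in growth, 73.1-fold higher (adjusted p = 5.97e-05). Cnn1, the calponin of contractile smooth muscle, read 8.12 and 7.39 at day 12 and 3.04, 4.80 and 4.31 in growth, 13.1-fold higher (adjusted p = 4.89e-06). Actg2, the enteric smooth muscle actin, read 5.95 and 6.55 at day 12 and 2.59, 2.56 and 2.54 in growth, at least 4.77-fold higher, and was the member that passed only through day 12. The smooth muscle myosin Myh11 and its kinase Mylk did not pass the filter. Most of these genes are also expressed in early heart muscle, so the list does not single out a cell type.

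Epicardial and mesothelial genes rose without exception among the 14 tested of 17 (14 higher, 0 lower, median 3.95). Msln, Scx and Krt19 did not pass the filter, and 5 of the 14 passed only through the day 12 arrays (Tcf21, Lum, Sema3d, Aldh1a2 and Gpm6a), so their direction followed from the filter. Upk3b, a uroplakin of mesothelium, read 10.59 and 10.51 at day 12, against 2.04, 2.01 and 2.04 in growth, a rise of at least 93.7-fold (adjusted p = 4.69e-06). Bnc1, a zinc finger factor of mesothelium and other epithelia, read 11.05 and 11.66 at day 12 and 2.85, 2.76 and 2.78 in growth, a rise of at least 164-fold (adjusted p = 7.78e-10). Tbx18, a factor of epicardium and sinus venosus, read 7.79 and 7.92 at day 12 and 2.58, 2.54 and 2.54 in growth, a rise of at least 14.5-fold (adjusted p = 1.93e-06). For all 3 the lowest day 12 array exceeded the highest growth array by over 5 log2 units. Tcf21, a factor of epicardium and cardiac fibroblast precursors, read 6.28 and 6.42 at day 12, against 2.40, 2.34 and 2.39 in growth (at least 5.11-fold, adjusted p = 1.37e-10). Lum and Dcn, small proteoglycans of connective tissue, were at least 6.33-fold and 6.04-fold higher. Lum differed between the day 12 arrays (7.28 and 6.04) and Dcn did not (6.58 and 6.61). Aldh1a2, which makes retinoic acid in the epicardium, was weaker at 4.40 and 5.61. With day 12 replicate C left out, 9 members rather than 14 were higher.

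**Figure D3:**
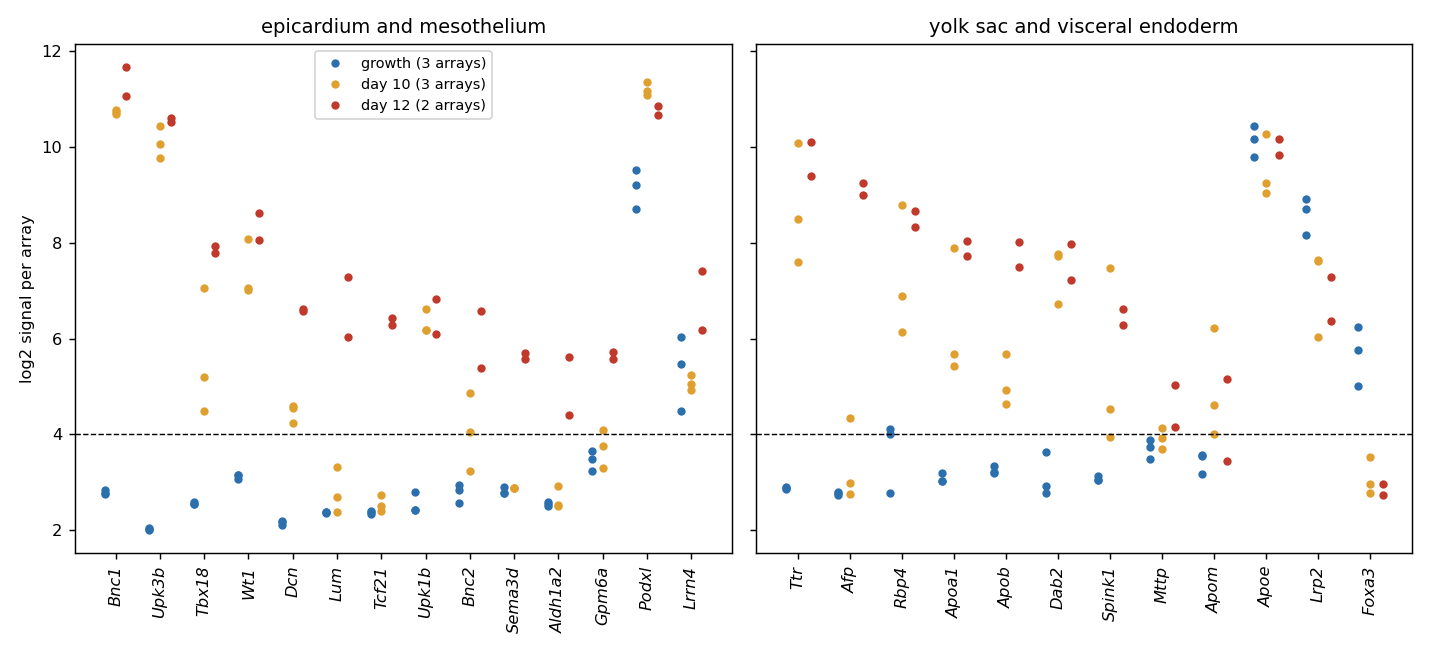
Log2 signal of the tested members of the epicardium and mesothelium list (left, 14 genes) and the yolk sac and visceral endoderm list (right, 12 genes) on the growth (blue, 3 arrays), day 10 (yellow, 3 arrays) and day 12 arrays (red, 2 arrays), with the dim cutoff of 4 dashed. Upk3b and Bnc1 are near their day 12 level by day 10, while Tcf21, Sema3d and Afp lie above 4 on both day 12 arrays. In growth and at day 10 Tcf21 lies well under the cutoff, as does Afp except on day 10 replicate A, at 4.35. Lrp2 and Foxa3 are highest in growth.

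Serum protein genes of yolk sac endoderm rose, while the endodermal transcription factor Foxa3 fell and Hnf4a was dim. Of 33 listed genes 12 were tested, 7 higher and 2 lower (median 3.93), with 1 passing only through day 12 (Afp), and 19 were dim. Ttr, the thyroxine carrier transthyretin, read 9.38 and 10.10 at day 12, against 2.90, 2.86 and 2.88 in growth, a rise of at least 53.5-fold (adjusted p = 0.000229). Apoa1 and Apob, proteins of lipoprotein particles, were at least 14.7-fold and 13.5-fold higher (adjusted p = 4.27e-06 and 0.000585). Rbp4, the retinol carrier, read 8.32 and 8.65 at day 12, against 2.77, 4.01 and 4.12 in growth, at least 21.8-fold higher with 1 of 3 growth arrays dim. For each of these genes both day 12 arrays were above all growth arrays. Apoe did not differ beyond its spread, at 10.16 and 9.82 at day 12 and 9.78, 10.43 and 10.17 in growth (adjusted p = 0.853). Foxa3, a forkhead factor of endoderm, read 2.73 and 2.96 at day 12, against 5.01, 5.76 and 6.24 in growth, at least 3.18-fold lower. Lrp2, the endocytic receptor megalin, was 3.40-fold lower (adjusted p = 0.0117), a call lost without day 12 replicate A (adjusted p = 0.124). Hnf4a, a nuclear receptor that defines visceral endoderm and liver, stayed under the cutoff, with a highest value of 3.22 on any of the 16 arrays.

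Of 5 Afp probe sets 3 passed the filter, and these were higher at day 12 by 4.15 to 6.35 log2 units. The promoter window of Afp, at chr5:90490464-90490763 on the plus strand (GRCm38.p6), is shown because its signal appeared late and on both day 12 arrays. It holds 1 match to GTTAAT, a half-site of the hepatocyte nuclear factor 1 motif, searched on both strands and set in capitals. The same letters stood in 3 of 10 windows of tested yolk sac genes (30%: Afp, Apoe, Dab2), in 5.05% of windows of all tested genes and in 7.1% of all windows.
Afp: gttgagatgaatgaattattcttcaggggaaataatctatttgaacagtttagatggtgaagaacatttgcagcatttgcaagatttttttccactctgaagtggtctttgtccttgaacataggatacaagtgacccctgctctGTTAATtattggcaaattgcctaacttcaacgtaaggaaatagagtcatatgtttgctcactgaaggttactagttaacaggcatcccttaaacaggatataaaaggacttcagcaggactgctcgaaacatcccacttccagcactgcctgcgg

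Basement membrane genes shared by parietal endoderm and many other cells were higher in 11 and lower in 1 of 15 tested (median 1.98). Nid1, the laminin-binding nidogen, read 9.37 and 9.62 at day 12, against 3.84, 4.81 and 4.48 in growth, 34.7-fold higher (adjusted p = 2.09e-07). Plat, the tissue plasminogen activator, read 8.57 and 8.74 at day 12 and 3.37, 2.81 and 2.81 in growth, at least 25.2-fold higher. The laminin chains Lamb1, Lama4 and Lama1 were 7.43-fold, 3.98-fold and 3.95-fold higher, and Lama5 was 2.31-fold lower with an adjusted p of 0.0462 that reached 0.163 under other settings. Few trophoblast genes were tested, so their count sets no direction for the lineage. Eomes, a T-box factor of trophoblast stem cells and early mesendoderm, read 4.45 and 4.47 at day 12, against 7.95, 7.82 and 7.64 in growth, 10.1-fold lower (adjusted p = 1.18e-05). Krt7, a keratin of trophoblast, mesothelium and other simple epithelia, read 6.32 and 6.34 at day 12 and 2.49, 2.38 and 2.45 in growth (at least 5.02-fold higher, passing only through day 12). Of 16 listed trophoblast genes 8 were tested, 4 higher and 1 lower. Over all tested genes 22.5% were higher and 19.3% lower. Cdx2 was dim in both groups, and Elf5 and Tpbpa did not pass the filter.

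Endothelial genes moved in both directions. Of 14 tested, 8 were higher and 3 lower (median 1.30), 1 of the 8 passing only through day 12, and 14 more listed genes, including Tie1, Emcn, Cldn5 and Erg, were dim. Tek, the angiopoietin receptor, read 7.16 and 8.62 at day 12, against 2.96, 2.96 and 2.97 in growth, a rise of at least 14.8-fold (adjusted p = 3.83e-05). Kdr, a receptor for vascular endothelial growth factor on endothelium and mesoderm progenitors, read 7.29 and 7.15 at day 12 and 2.48, 2.47 and 1.99 in growth, a rise of at least 9.34-fold (adjusted p = 1.4e-06). Its relative Flt1 read 4.93 and 5.70 at day 12, against 8.85, 8.19 and 8.28 in growth, 8.72-fold lower (adjusted p = 1.25e-05). The junction proteins that define endothelium stayed near the cutoff. Cdh5 read 4.18 and 3.80 at day 12 and 2.43 to 2.48 in growth, and Pecam1 read 3.62 and 4.61 at day 12 and 2.62 to 3.23 in growth. Their calls (adjusted p = 0.0255 and 0.0216) were lost under several other settings, with adjusted p up to 0.753 for Cdh5 and 0.144 for Pecam1. Without day 12 replicate A, or with values under 4 set to 4, the count of higher endothelial genes was 5.

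Among blood genes, an embryonic globin rose while defining genes of the lineage were dim. Hba-x, the embryonic zeta-like alpha chain, read 7.04 and 6.76 at day 12, against 2.04, 1.95 and 2.01 in growth, a rise of at least 7.46-fold (adjusted p = 0.033, up to 0.119 under other settings). Hbb-bh1, an embryonic beta-like chain, read 8.21 and 7.01 at day 12 and 3.56, 2.99 and 3.12 in growth, a difference of 4.39 ± 1.92 (SE) that was not called (adjusted p = 0.0624). Both day 12 arrays were above all growth arrays for each. The wide error is that of the model over all groups, where day 8 replicate A lay far below day 8 replicates B and C for these genes. Of 13 blood genes tested 4 were higher and 1 lower (median 0.91), and the 38.5% called was close to the 41.9% of all tested genes. Kit, a receptor of progenitors of several lineages, read 7.05 and 7.42 at day 12, against 4.00, 4.25 and 3.74 in growth, at least 8.87-fold higher with 2 of 3 growth arrays dim (adjusted p = 2.74e-07). Myb, a factor of blood progenitors, read 3.85 and 3.91 at day 12, against 5.83, 6.44 and 7.09 in growth, at least 5.48-fold lower. Gata1, the erythroid factor, and Ptprc, which encodes the pan-leukocyte antigen CD45, did not pass the filter.

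Neural genes were lower at day 12. Of 13 tested, 8 were lower and 1 higher (median -2.35), and the defining factors Sox1, Pax6 and Neurog2 were dim throughout the series. Otx2, a factor of anterior epiblast and forebrain, read 6.36 and 4.53 at day 12, against 11.06, 10.30 and 10.69 in growth, 37.7-fold lower (adjusted p = 4.14e-06), with the day 12 arrays well apart. Gng3, a G-protein gamma subunit of neurons, read 6.54 and 4.97 at day 12 and 11.71, 11.98 and 11.79 in growth, 67.2-fold lower (adjusted p = 1.13e-08). The neurofilament genes Nefl and Nefm were dim at day 12 and at least 6.46-fold and 6.66-fold lower. Map2, a microtubule protein of neurons also found in other cells, went the other way, at 5.29 and 5.61 at day 12 against 2.42, 2.54 and 2.48 in growth. Genes shared by neural crest and mesenchyme were higher in 5 of 8 tested (0 lower, median 1.83), among them Ednrb, the endothelin receptor B (7.67 and 7.61 at day 12, against 2.79 to 2.82 in growth), and Twist1 (6.54 and 5.70 at day 12, against 2.62 to 2.86 in growth). Sox10, the factor that defines crest derivatives, did not pass the filter.

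Few genes of skeletal muscle, kidney or skeleton passed the filter. Of 23 skeletal muscle genes 19 were dim, including Myod1, Myog and Myf5, and the 4 tested held 1 rise and 1 fall. Myl1, a myosin light chain of fast skeletal and embryonic heart muscle, read 9.03 and 7.81 at day 12, against 3.11, 3.07 and 2.85 in growth, at least 21.4-fold higher. Tnnt1, the slow skeletal troponin T, read 6.70 and 6.95 at day 12, against 9.46, 9.55 and 9.82 in growth, 6.89-fold lower (adjusted p = 3e-06). It was lower still at days 6 and 8 (2.57 to 2.92) and at day 10 (4.53, 4.75 and 4.75). Against day 10, 3 of the 4 tested skeletal muscle genes were higher at day 12 and 0 lower, against 2.88% higher over all tested genes. Among 5 tested genes of intermediate mesoderm and kidney 3 were lower and 0 higher. Nr5a1, an orphan nuclear receptor of adrenal and gonad, read 1.95 and 1.98 at day 12, against 8.15, 7.54 and 7.96 in growth, at least 14.8-fold lower (adjusted p = 2.36e-11). Only 3 genes of cartilage, bone and fat were tested. Alpl, the tissue-nonspecific alkaline phosphatase that also marks pluripotent cells, was at least 12.6-fold lower (adjusted p = 1.17e-06).

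Mesenchymal and matrix genes rose. Of 33 tested, 28 were higher and 0 lower (median 3.42), 2 of them passing only through day 12. Cdh11, a cadherin of mesenchyme, read 10.54 and 11.11 at day 12, against 3.04, 2.19 and 2.19 in growth, a rise of at least 113-fold (adjusted p = 1.21e-09). Snai2, a zinc finger repressor of epithelial genes, read 9.59 and 9.61 at day 12 and 3.72, 3.67 and 3.94 in growth, at least 48.5-fold higher. Vcan, the versican of cardiac jelly, read 10.79 and 10.59 at day 12, against 3.75, 7.08 and 5.38 in growth, 39.1-fold higher, and its growth arrays spread over more than 3 log2 units. Postn, a matricellular protein of cushion mesenchyme and fibroblasts, was at least 21.7-fold higher. Ccn2, also called connective tissue growth factor, was not called (7.93 and 8.11 at day 12, against 9.13, 8.29 and 9.15 in growth). Of 29 tested collagen chains 19 were higher and 1 lower (median 2.50), 4 of the 19 passing only through day 12. Col3a1, of fibrillar collagen III, read 12.06 and 12.26 at day 12, against 2.91, 2.81 and 2.84 in growth, a rise of at least 286-fold (adjusted p = 1.91e-09). Col1a1, the alpha1 chain of collagen I, differed between the day 12 arrays, at 4.28 and 6.41, against 3.01 to 3.16 in growth (at least 2.54-fold, adjusted p = 0.00125), whereas its partner Col1a2 read 7.45 and 7.65. Col2a1, of cartilage and notochord, was at least 1.88-fold lower.

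Epithelial genes moved in both directions. Of 21 tested, 7 were higher and 9 lower, with a median of -0.06. Several desmosome genes rose. Dsp, desmoplakin, read 11.30 and 11.69 at day 12, against 4.05, 6.01 and 6.52 in growth, 62.6-fold higher (adjusted p = 7.27e-07). Jup, Pkp2 and Dsg2, further desmosome proteins that also join cardiac muscle cells, were 7.25-fold, 5.48-fold and 4.20-fold higher. Several adhesion and tight junction genes fell. Epcam, the epithelial cell adhesion molecule, read 7.39 and 6.56 at day 12, against 12.22, 12.21 and 11.98 in growth, 35.8-fold lower (adjusted p = 3.08e-06). Cdh1, E-cadherin, read 4.55 and 5.48 at day 12, against 7.51, 8.76 and 8.94 in growth, 10.4-fold lower, and the splicing regulator Esrp1 was dim at day 12 and at least 8.26-fold lower. Grhl3, a grainyhead factor of surface epithelium, went up with Krt8, at 7.34 and 7.70 at day 12 against 2.54, 3.54 and 2.48 in growth.

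Among 22 tested pluripotency genes 16 were lower and 2 higher (median -4.60). Utf1, a chromatin factor of pluripotent cells, read 4.90 and 4.81 at day 12, against 12.18, 12.07 and 12.29 in growth, 160-fold lower (adjusted p = 6.47e-09). Pou5f1, the factor Oct4, read 9.94 and 8.49 at day 12, against 14.12, 14.27 and 14.50 in growth, 34.0-fold lower (adjusted p = 6.84e-06). Sox2 read 8.19 and 8.57 at day 12, against 10.42, 10.97 and 11.23 in growth, 5.61-fold lower. Day 12 signals of Pou5f1 and Sox2 thus remained far above the dim cutoff, while those of Gdf3, Eras, Foxd3 and Fgf4 were dim on both day 12 arrays. Klf4 and Klf2, Krüppel-like factors also found in differentiated tissues, rose. Klf4 read 6.42 and 6.90 at day 12 and 3.58, 3.54 and 3.57 in growth, and Klf2 was 4.22-fold higher.

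Chromatin regulators exchanged members. Of 22 tested genes of DNA methylation and Polycomb 11 were lower and 4 higher (median -1.08). Dnmt3b, a de novo DNA methyltransferase, read 6.90 and 6.31 at day 12, against 12.13, 12.31 and 12.58 in growth, 53.1-fold lower (adjusted p = 4.19e-08). Cbx7, the chromobox subunit of Polycomb complexes in stem cells, read 3.08 and 2.02 at day 12, against 8.45, 8.43 and 8.51 in growth, at least 22.1-fold lower (adjusted p = 2.63e-07). Other Polycomb subunits rose, with Bmi1 9.75-fold, Cbx6 2.62-fold and Cbx8 at least 3.24-fold higher, the last with 2 of 3 growth arrays dim. Tet2, an enzyme that oxidizes methylcytosine, was 5.10-fold higher, and its relative Tet1 2.32-fold lower.

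Cell cycle genes were lower as a group. Of 37 tested, 27 were lower and 3 higher (median -1.60). Plk1, a kinase of mitotic entry, read 8.13 and 7.71 at day 12, against 11.28, 10.97 and 10.86 in growth, 8.65-fold lower (adjusted p = 1.33e-07). Mcm2 and Mcm5, subunits of the replicative helicase, were 5.04-fold and 4.06-fold lower. All day 12 arrays of these 3 lay under all growth arrays, yet none was dim, and Mki67, a marker of cycling cells, read 10.13 and 10.38 at day 12, against 11.04, 11.11 and 11.01 in growth, a difference under 1 log2 unit. Cyclins did not move together. Ccnd1 and Ccne1 were 3.62-fold and 3.51-fold lower, whereas Ccnd2, Ccnd3 and Ccne2 were 3.29-fold, 3.80-fold and 5.83-fold higher. Of 14 tested inhibitors and pocket proteins 9 were higher and 0 lower (median 2.29, 1 passing only through day 12). Rbl2, the pocket protein p130, read 7.08 and 7.72 at day 12, against 3.90, 3.85 and 3.98 in growth, at least 10.6-fold higher. Ccng2, a cyclin of non-dividing cells, was 14.9-fold higher, at 10.89 and 11.17 at day 12. Cdkn1a, the inhibitor p21, was not called: it read 6.96 and 7.32 at day 12, against 4.75, 7.69 and 5.88 in growth, whose arrays straddled it.

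The cell cycle homology region, TTTGAA in the form searched here on both strands, stood in 10 of 28 promoter windows of tested cell cycle genes (35.7%), in 13.9% of those of all tested genes, in 17% of those of genes lower at day 12 and in 17.9% of all windows. It also stood in 4 of 10 windows of tested yolk sac genes (40%). The window of Plk1, at chr7:122159185-122159484 on the plus strand (GRCm38.p6), is shown as the cell cycle gene that fell most, with the match in capitals.
Plk1: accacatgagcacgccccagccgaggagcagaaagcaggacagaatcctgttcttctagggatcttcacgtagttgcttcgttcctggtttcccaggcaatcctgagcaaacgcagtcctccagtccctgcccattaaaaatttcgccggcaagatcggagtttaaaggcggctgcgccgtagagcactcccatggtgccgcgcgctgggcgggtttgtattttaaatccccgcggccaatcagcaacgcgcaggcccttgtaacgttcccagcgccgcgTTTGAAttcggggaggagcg

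**Figure D4:**
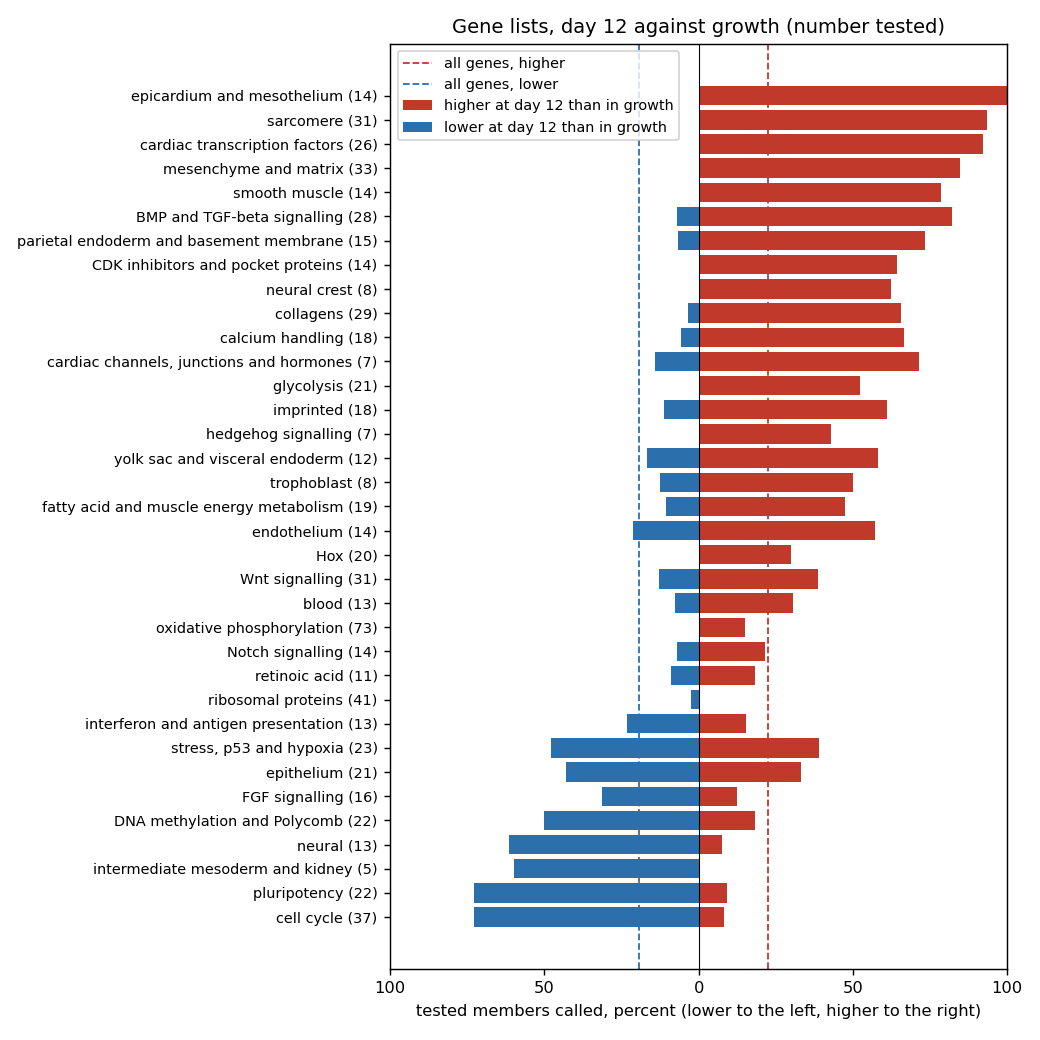
Percent of tested members called, for each gene list with at least 5 tested genes, higher (red, right) or lower (blue, left) at day 12 than in growth, with the number tested in brackets and dashed lines at the shares over all tested genes, 22.5% higher and 19.3% lower. Epicardium, sarcomere, cardiac factors and matrix lie at the top, pluripotency and cell cycle at the bottom, and oxidative phosphorylation and ribosomal proteins fall short of both dashed lines.

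In signalling, most genes of the BMP and TGF-beta pathway rose, with 23 of 28 tested genes higher and 2 lower (median 2.43). Bmp4, a ligand, read 10.61 and 10.38 at day 12, against 4.48, 5.28 and 4.85 in growth, 49.4-fold higher (adjusted p = 2.85e-08). Bmp5, Bmp7 and Tgfb2 were at least 24-fold, at least 11-fold and 20.7-fold higher, and among receptors Bmpr2 was 4.23-fold and Tgfbr1 3.15-fold higher. Target genes rose too. Id2, an inhibitor of basic helix-loop-helix factors, read 12.12 and 12.68 at day 12, against 5.45, 4.85 and 5.46 in growth, 142-fold higher (adjusted p = 6.3e-10). The feedback inhibitors Bambi and Smad6 were 88.0-fold and 49.6-fold higher. Tgfb3 and Acvr2b, a ligand and an activin receptor, were 3.39-fold and 2.34-fold lower.

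Wnt genes were mixed, 12 of 31 tested being higher and 4 lower (median 0.82, 1 passing only through day 12). Sfrp1, a secreted antagonist, read 10.87 and 11.14 at day 12, against 5.67, 6.08 and 6.15 in growth, 32.8-fold higher (adjusted p = 3.43e-05). The ligands Wnt11 and Wnt5a, known for signalling without beta-catenin, were 8.01-fold and at least 5.63-fold higher, with 2 of 3 growth arrays dim for Wnt5a. Axin2, a target of beta-catenin signalling, read 4.51 and 3.24 at day 12, against 6.17, 5.80 and 5.74 in growth, at least 3.14-fold lower with 1 of 2 day 12 arrays dim (adjusted p = 0.00404, and 0.0815 without day 12 replicate C). Of 16 tested FGF genes 2 were higher and 5 lower (median -0.26), and the 43.8% called was close to the share over all tested genes. Fgf15, a ligand, was dim at day 12 and at least 7.49-fold lower, and the FGF target Etv5 read 6.64 and 6.39 at day 12, against 10.94, 11.32 and 11.44 in growth, 26.2-fold lower. The receptors Fgfr2 and Fgfr3 were higher, by 4.13-fold and at least 7.98-fold. Retinoic acid genes were called less often than all tested genes, with 2 of 11 tested higher and 1 lower (27.3%, median -0.255). The receptor Rarb, itself a target of retinoic acid, read 6.91 and 8.33 at day 12 against 2.45 to 2.49 in growth (at least 12.3-fold higher). Its relative Rarg was 12.6-fold lower, and the receptor Rxrb was not called (8.77 and 9.17 at day 12, against 9.41, 9.31 and 9.29 in growth). Notch genes (3 of 14 higher, 1 lower) and hedgehog genes (3 of 7 higher, 0 lower) had medians of -0.13 and 0.71. The shares called were 28.6% and 42.9%, against 41.9% of all tested genes. Among the hedgehog genes Gli2 read 7.03 and 6.85 at day 12, against 5.63, 5.92 and 5.76 in growth. Its call was lost under 16 of the 23 alternatives. The Notch ligand Jag1 was 5.09-fold higher (adjusted p = 0.0176), a call lost without either day 12 replicate (adjusted p up to 0.0761).

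Of 20 tested Hox genes, which set position along the body axis, 6 were higher and 0 lower (median 0.37), so that 30% were called, against 41.9% of all tested genes. Hoxb2 read 9.03 and 8.60 at day 12, against 1.55, 1.59 and 1.82 in growth, a rise of at least 28.1-fold (adjusted p = 6.3e-10), and its cluster neighbours Hoxb3 and Hoxb4 were 12.4-fold and at least 10.4-fold higher. Hoxb1, Hoxc8 and Hoxc10 were dim in both groups. Of 18 tested imprinted genes 11 were higher and 2 lower (median 2.12). Igf2r, which clears the growth factor Igf2, read 11.79 and 12.39 at day 12, against 6.84, 7.12 and 7.24 in growth, 32.6-fold higher (adjusted p = 5.02e-08). Ndn and Peg3, paternally expressed genes, were 13.3-fold and 6.35-fold higher, and Magel2 and Snrpn, paternally expressed too, were 10.3-fold and at least 2.97-fold lower.

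Energy genes rose in selected steps. Of 21 glycolysis genes 11 were higher and 0 lower (median 1.07). Pgam2, the muscle phosphoglycerate mutase, read 12.04 and 11.56 at day 12, against 3.12, 4.46 and 3.53 in growth, at least 199.8-fold higher with 2 of 3 growth arrays dim (adjusted p = 1.58e-06). Its widely expressed relative Pgam1 was not called, at 13.31 and 13.36 at day 12 and 12.73, 12.64 and 13.01 in growth. Of 19 genes of fatty acid and muscle energy use 9 were higher and 2 lower (median 0.71). Cd36, a fatty acid transporter, read 8.87 and 9.20 at day 12, against 2.96, 2.86 and 2.89 in growth, a rise of at least 32.9-fold (adjusted p = 3.51e-09). Ppargc1a, a coactivator of mitochondrial genes, was at least 10.0-fold higher, while Cpt2, of the carnitine shuttle, and Ckb, the brain creatine kinase, were 2.21-fold and 4.60-fold lower. Only 11 of 73 subunits of oxidative phosphorylation were called, all upward (median 0.48), and at the adjusted p alone 35 were higher and 7 lower. These subunits were thus called higher less often (15.1%) than all tested genes (22.5%). The shares called either way were 52.4% for glycolysis and 57.9% for fatty acid and muscle energy use, against 41.9% of all tested genes. Cox6a2 and Cox7a1, subunits of muscle cytochrome oxidase, were 16-fold and 3.97-fold higher. Of 41 ribosomal protein genes 0 were higher and 1 lower (median -0.20).

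Stress genes moved in both directions, 9 of 23 tested being higher and 11 lower, with 1 of the 9 (Car9) passing only through day 12. Vegfa, the vascular growth factor, read 9.33 and 9.75 at day 12, against 5.42, 6.51 and 6.62 in growth, 10.2-fold higher (adjusted p = 2.1e-06). Ndrg1 was 57.6-fold higher (adjusted p = 5.4e-06), and Egln3, an oxygen sensor, 7.30-fold higher. Psat1, of serine synthesis, read 9.51 and 9.31 at day 12, against 12.84, 12.79 and 13.00 in growth, 11.05-fold lower (adjusted p = 2.18e-07), and Asns, Trib3 and Atf4 were 3.76-fold, 4.92-fold and 2.08-fold lower. Ddit3, a stress-induced factor also called CHOP, was not called, at 10.09 and 10.61 at day 12 against 10.09, 9.88 and 9.31 in growth (adjusted p = 0.206), and Ddit4, an inhibitor of mTOR signalling, was higher, at 10.78 and 10.67 at day 12 against 8.77, 8.71 and 9.37 in growth. The growth arrays ranged over more than 2 log2 units for Ndrg1 (3.99, 5.37 and 6.87), as they did for the p53 targets Ccng1 (7.80, 10.34 and 8.95) and Trp53inp1 (7.52, 10.04 and 8.61), with replicate A lowest in each. Of 13 tested genes of interferon response and antigen presentation 2 were higher and 3 lower (median -0.02). The 38.5% called was close to the 41.9% of all tested genes. Among those called were Bst2, a surface protein that tethers viruses, 26.0-fold lower, and B2m, the light chain of class I molecules, 4.51-fold higher.

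The last 2 days of the course were set apart by comparing day 12 with the 3 day 10 arrays, a comparison that uses the same day 12 arrays. Of 10802 genes 3.06% were called: 311 were higher (2.88%) and 20 lower (0.185%). Of the 311, 111 passed the filter only through day 12 and so could be called only as higher, and the other 200 were measured elsewhere too. Without day 12 replicate C 58 were higher, and without replicate A 170. Afp read 8.99 and 9.25 at day 12, against 4.35, 2.75 and 2.99 at day 10, at least 32.1-fold higher, with 2 of 3 day 10 arrays dim. Tm4sf5, a tetraspanin-like membrane protein, read 9.41 and 8.21 at day 12, against 5.80, 4.09 and 4.03 at day 10, 18-fold higher (adjusted p = 0.00013, and 0.0557 when only the groups compared were fitted). Tecrl, a reductase-like protein of heart endoplasmic reticulum, was at least 8.09-fold higher, Fxyd1, a regulator of the sodium pump, at least 3.58-fold, and Sspn, sarcospan of the dystrophin complex, at least 5.30-fold, a call lost with no dim filter (adjusted p = 0.302). These last 3 were dim at day 10, and like Afp they passed only through day 12 and could be called only as higher.

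Of the 14 tested epicardial genes 8 were also higher at day 12 than at day 10, against 2.88% of all tested genes. Of these 8, 5 passed only through day 12. Tbx18 read 7.79 and 7.92 at day 12, against 7.06, 5.19 and 4.49 at day 10 (4.85-fold, adjusted p = 0.0299, up to 0.237 under other settings). Wt1, Upk3b and Bnc1 were not called, with differences of 0.96, 0.47 and 0.64. Ryr2 read 9.16 and 9.46 at day 12, against 7.60, 7.37 and 6.81 at day 10, 4.14-fold higher (adjusted p = 0.0148, and up to 0.226 with 1 array left out). Myh6 read 10.99 to 12.13 at day 10, below both day 12 arrays, and its difference of 2.08 ± 0.74 (SE) was not called (adjusted p = 0.163). Of 29 tested collagen genes 7 were higher than at day 10, against 2.88% of all tested genes. Col6a1, Col6a2 and Col6a3, chains of collagen VI, were among the 7. Col6a2 and Col6a3 were dim at day 10 and passed only through day 12, so they could be called only as higher.

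Of 13 tested blood genes 3 were lower at day 12 than at day 10 and 0 higher, against 0.185% lower and 2.88% higher over all tested genes. Hbb-y, an embryonic beta-like chain, read 3.29 and 4.37 at day 12, against 6.18, 8.74 and 7.99 at day 10, at least 10.95-fold lower with 1 of 2 day 12 arrays dim (adjusted p = 0.000526, and 0.104 when only the groups compared were fitted). Alas2, the erythroid enzyme of haem synthesis, read 1.74 and 1.77 at day 12 and 4.45, 5.47 and 5.34 at day 10, at least 2.12-fold lower (adjusted p = 0.00238, and 0.0638 without day 12 replicate C). Slc4a1, the band 3 anion exchanger, was at least 2.02-fold lower, a call lost under 7 settings, leaving out either day 12 array among them (adjusted p = 0.0291, up to 0.21). Hbb-bh1 read 8.21 and 7.01 at day 12, against 12.62, 13.23 and 12.73 at day 10, and Hba-x read 7.04 and 6.76 at day 12, against 11.15, 12.20 and 11.92 at day 10. Although no array overlapped, neither was called (adjusted p = 0.175 and 0.191). The model's pooled error includes day 8, where these genes ranged over more than 9 log2 units. At day 8 replicates A, B and C read 2.95, 11.96 and 12.63 for Hbb-bh1 and 2.04, 10.77 and 11.28 for Hba-x. Phlda2, an imprinted regulator of placental growth, was 4.85-fold lower than at day 10, and Igsf11 at least 9.50-fold lower with 1 of 2 day 12 arrays dim. Both calls were lost without day 12 replicate C (adjusted p = 0.135 and 0.19).

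**Figure D5:**
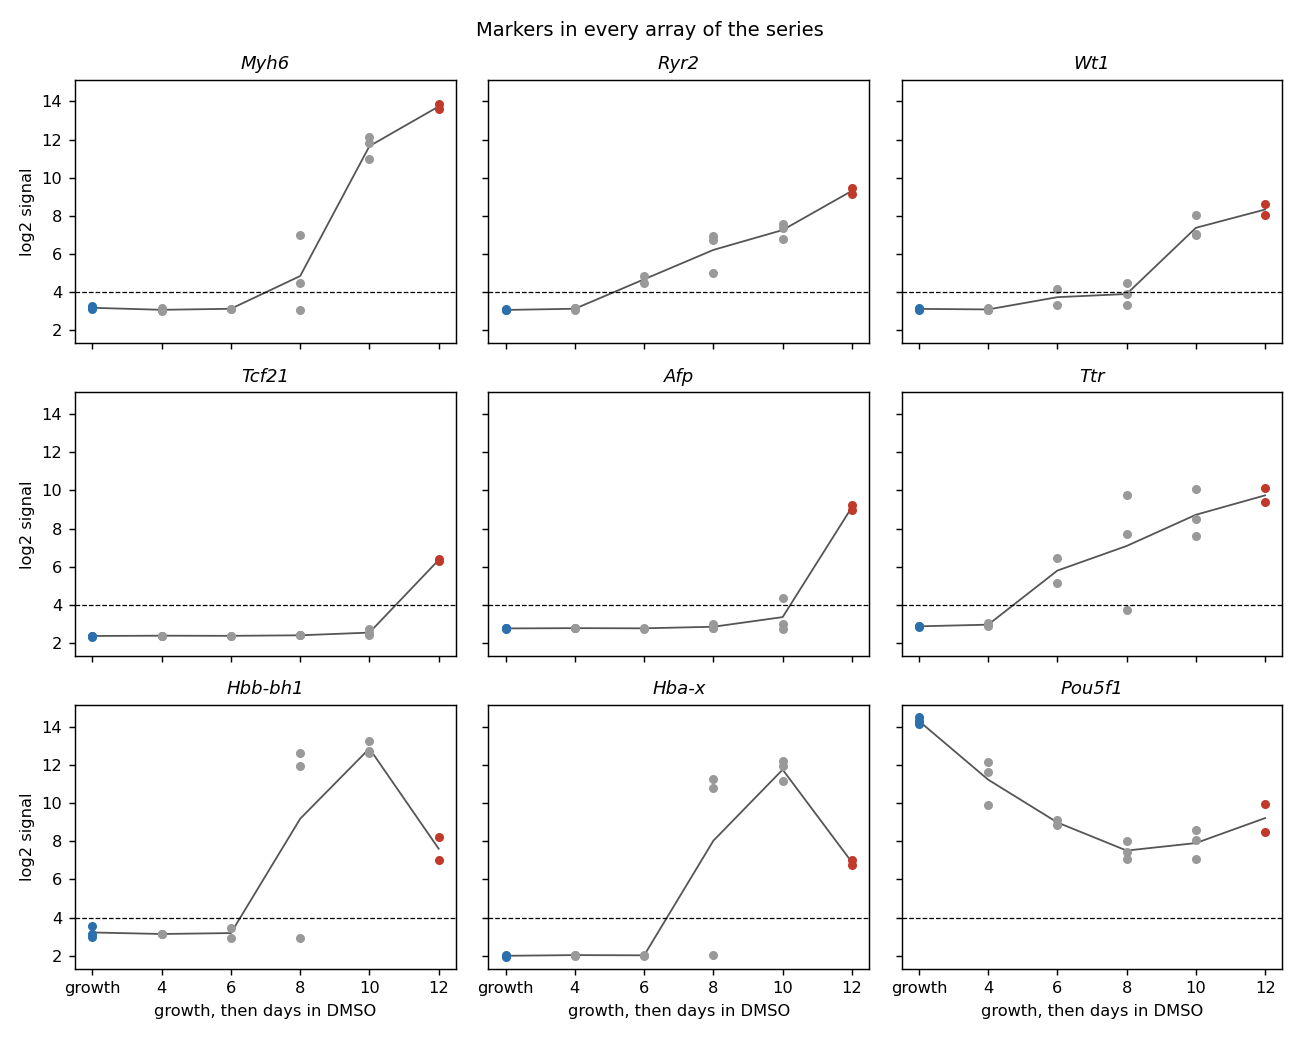
Log2 signal of 9 markers on all 16 arrays, from growth (blue) through days 4 to 10 of DMSO (grey) to day 12 (red), with lines through group means and the dim cutoff of 4 dashed. Myh6 and Wt1 climb from day 8 or 10, Tcf21 and Afp appear at day 12, and Hbb-bh1 and Hba-x peak at day 10 and are lower on both day 12 arrays.

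The 2 day 12 cultures differed from each other in a minority of genes. Their median absolute difference was 0.27 log2 units. Replicate C exceeded A by at least 1 log2 unit for 338 genes and A exceeded C for 181, or 202 and 68 genes with a day 12 mean of at least 6. Sema5a, a semaphorin, read 5.20 in replicate A and 8.59 in C at day 12, against 3.50, 2.71 and 3.19 in growth. Pcdh7, a protocadherin, read 6.31 and 8.56 at day 12, and Taf15, an RNA-binding protein, 5.39 and 7.63. In the other direction Rab3a, a vesicle GTPase, read 8.07 in A and 5.24 in C, Sdc4, a syndecan, 8.61 and 6.19, and Haghl 7.93 and 5.38. At day 10 replicate A also lay under B and C for Sema5a (4.78, 9.03 and 7.91 in A, B and C). The same held for Pcdh7 (6.95, 8.57 and 7.57) and Taf15 (4.85, 7.46 and 6.48). It lay above them for Sdc4 (7.86, 4.58 and 5.24). Rab3a (6.76, 7.13 and 7.24) and Haghl (8.16, 7.93 and 8.25) showed no such split at day 10. Whether the letter marks a shared source was not tested. For Sema5a the call against growth was lost without replicate C (adjusted p = 0.139), and for Haghl without replicate A (adjusted p = 0.329).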

How the data were processed

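The values were the authors' deposited log2 signals of 45101 probe sets on 16 arrays, made with GCRMA per the submitters' processing notes, and the log2 scale was read from their range of 0.863 to 15.9. Of these, 34945 probe sets named 1 gene, 932 several and 9160 none. Single-gene probe sets that exceeded log2 4 on at least 2 arrays were kept. Where several kept probe sets named a gene, the brightest on average was used (10802 of 18193 genes). limma 3.58.1 in R 4.3.3 fitted 6 group means over 16 arrays (lmFit, eBayes), with Benjamini-Hochberg adjustment over all tested genes and 10 residual degrees of freedom. Every adjusted p is from this fit unless another setting is named. A gene was called at an adjusted p under 0.05 and a difference of at least 1 log2 unit.

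Groups came from the sample titles. The members and the 37 gene lists were chosen with earlier results of these data known. Named genes were the 12 largest rises and falls, 10 each way outside the lists, per list the 6 largest calls, calls against its direction and the 2 brightest not called, all markers, 6 each way against day 10, and 6 each way between the day 12 arrays. Further list members are named to complete an account of a list and were chosen after their values were seen. Alternatives covered the dim filter, scaling, the variance model, probe set choice, thresholds, a replicate block and leaving out arrays. The fit was tested on simulated data for day 12 against growth over 10802 genes, with normal noise of 1 spread per gene in all groups. It called 76 of 100 genes changed by 1.5 log2 units and 96 of 100 changed by 3, and 5 of 10602 unchanged genes. All other genes had equal means in every group, whereas 41.9% were called in the real data. These rates therefore do not carry over to the real calls. Promoter windows are RefSeq sequences of GRCm38.p6. Array scan batches were not given in the sources used here.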

Additional observations from a re-analysis of the deposited data

Results flagged for a closer look

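Among the 12 largest rises and falls against growth and the markers, 8 genes were called higher at day 12 than at day 10. The test was that given above (limma, day 12 minus day 10, Benjamini-Hochberg adjusted), in which the growth arrays cancel. Over all tested genes 2.88% were higher than at day 10. Genes other than markers were picked by their day 12 values, which the test uses again, so their number is no independent support. The fitted change was 5.76 log2 units for Afp and 3.80 for Tcf21. Both passed the dim filter only through the day 12 arrays and could be called only as higher, and 2 of 3 day 10 arrays for Afp and all 3 for Tcf21 were dim, so these changes run from signals under the cutoff. The change was 2.28 for Tbx18, 2.19 for Cnn1, 2.17 for Col3a1, 2.13 for Myl9, 2.05 for Ryr2 and 1.58 for Actn2, a sarcomere alpha-actinin. The calls of Tbx18, Cnn1, Ryr2 and Actn2 were lost under other settings, with adjusted p up to 0.237, 0.0862, 0.226 and 0.168.

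Probe sets without a single gene name, which no comparison above uses, also differed from growth. Of 1685 with no gene name that passed the dim filter 279 were higher at day 12 and 206 lower, and of 535 with several gene names 81 were higher and 76 lower. The shares called were 28.8% and 29.3%, against 39.6% of probe sets naming 1 gene. The control probe sets of 18S rRNA averaged 8.37 at day 12, against 4.91 to 5.66 on the growth arrays. The poly-A spike-in probe sets averaged 6.11 at day 12, against 4.35 to 5.28 on the growth arrays.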

How the results depend on the processing

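None of the named genes called against growth or day 10 reversed its direction under the 23 alternatives. Against growth, the 2435 higher and 2089 lower genes became 2178 to 2500 and 1950 to 2146 with 1 array left out. Counting every single-gene probe set gave 4032 higher and 3491 lower, and the adjusted p alone gave 3256 lower. With quantile normalization repeated there were 2267 higher and 2359 lower genes, so that lower genes became the more numerous. Against day 10, the 311 higher genes became 129 with a dim cutoff of 6, 113 when only the groups compared were fitted, 483 over every single-gene probe set and 184 at an adjusted p under 0.01. The 20 lower genes became 13 with no dim filter, 13 with a cutoff of 6, 38 with quantile normalization repeated, 8 when only the groups compared were fitted, 7 at an adjusted p under 0.01 and 49 at the adjusted p alone. With 1 array left out there were 58 to 440 higher and 2 to 47 lower genes than at day 10. Leaving out day 12 replicate C gave the lowest of both counts (58 and 2), without replicate A there were 170 and 47, and the remaining day 12 array was then assumed to vary like the other groups. The cause of these shifts was not tested. Of 262 named genes called against growth, 227 kept their call under all 23 alternatives, and of 17 called against day 10, 5 did. Calls were also gained. Without day 8 replicate A, 3 named genes gained a call against growth and 3 against day 10. The counts against day 10 were then 347 higher and 33 lower. That array departed from day 8 replicates B and C for more than the globins. In A, B and C Myl7 read 3.27, 10.27 and 11.23, and Col1a2 read 2.94, 8.22 and 8.89. The spread of day 8 enters the error of every comparison.

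With the replicate letter as a block (replicate block) the counts against growth were 2440 up and 2138 down, and those against day 10 were 289 up and 17 down. Only letters A and C are shared by day 12 and growth, where the deviations of same-lettered arrays correlated at 0.186 and 0.175. Day 10 was not compared by letter in this way, and the letters were not treated as pairs. The precision rests on 2 day 12 arrays, and a group dim on all its arrays gives only a bound.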
